A study of Mus musculus with 9 samples.

Results

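The cultures labelled replicate 1 were compared with those labelled replicates 2 and 3. The comparison set 3 of the 9 RNA-seq samples of the series (replicate 1, with 1 sample each of solvent, E2 and 4OHT) against the other 6, chosen by the replicate number in the sample labels alone. All 9 samples were murine oviductal epithelial (MOE) cells of the FVB strain, a line grown from 1 clone of secretory cells, so that the comparison is between cultures of the same line and not between animals. The cells had been held for 48 h in medium with charcoal-stripped serum and without phenol red, and were then treated for 24 h with 0.1% DMSO as the solvent control, with 1 nM 17-beta-estradiol (E2, the main natural estrogen), or with 100 nM 4-hydroxytamoxifen (4OHT, a selective estrogen receptor modulator), both given in DMSO. Each treatment held 1 sample of each replicate number, so treatment and replicate number were balanced. The labels do not say what a replicate number stands for (a passage, a thaw, a day or a library preparation), and the 3 samples that share a number may share any of these, so the p-values below measure the spread between samples and not between independent repeats of the whole experiment.

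Secretory cells of the oviduct, the mouse counterpart of the fallopian tube, are marked by the transcription factor PAX8 and respond to estrogen through estrogen receptor alpha, encoded by *Esr1*. Cells in culture adjust their transcripts to crowding, to the nutrients left in the medium and to growth on plastic. Among the programs known to follow such conditions are sterol synthesis, driven by the transcription factor SREBP2 when membrane cholesterol is low, amino acid synthesis and import, driven by ATF4 when amino acids are short or translation is stressed, and the actin cytoskeleton genes driven by SRF. These facts are background and were not tested here.

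The values were FPKM (fragments scaled to transcript length and to the number of mapped fragments), and sequencing depth cannot be read from them. The study enriched mRNA with oligo-dT, so RNAs without a poly(A) tail are read only in part. The FPKM totals of the 9 samples were between 522517 and 588640, and between 11037 and 11175 of 23332 gene rows reached 1 FPKM. Differences are on the log2(FPKM + 1) scale throughout, which understates changes of genes near or under 1 FPKM, and a positive difference means higher in replicate 1. The label of the cells was checked against markers. *Pax8* was between 105 and 150 FPKM in all 9 samples, whereas *Epcam* and *Cdh1*, general epithelial adhesion genes, did not exceed 0.138 and 0.422 FPKM. *Foxj1*, the master factor of ciliated cells, was between 8.95 and 15.9 FPKM and slightly lower in replicate 1 (-0.24, adjusted p = 0.0276), while 8 of the 14 listed ciliated cell markers were under 1 FPKM in all samples. Defining markers of leukocytes (*Ptprc*), endothelium (*Pecam1*, *Cdh5*), adipocytes (*Adipoq*) and most fibroblast markers (*Pdgfra*, *Pdgfrb*, *Col3a1*, *Thy1*) were under 1 FPKM in all samples. Of 18 listed mesenchymal genes 12 were tested, and some were high, with at most 2050 FPKM for *Vim*, 1720 for *Acta2* and 39.9 for *Cdh2*. The mesothelial markers summed to between 232 and 406 FPKM, with 4 of the 7 in the table under 1 FPKM in all samples. In bulk RNA, fewer cells of a kind and less RNA per cell cannot be told apart, and this holds for every result below.

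Replicate 1 differed from the other cultures across a wide range of genes. Of 11094 rows tested (at least 1 FPKM in 3 or more samples and no exact zero), 2834 (25.5%) had an adjusted p under 0.05 with limma and Benjamini-Hochberg adjustment, with treatment as a block. Of these, 1514 (13.6%) were higher and 1320 (11.9%) were lower in replicate 1. Most differences were small: the median absolute difference of the rows called was 0.28, and 64 rows were higher and 26 lower by at least 1. All 3 replicate 1 samples lay above all 6 others in 1202 rows (10.8%) and below all 6 in 1130 rows (10.2%). Replicate 1 was above both other numbers in each of the 3 treatments in 2480 rows (22.4%) and below both in 2217 (20%). When each sample's FPKM total was first set equal, 64.8% of the rows called were higher, against 53.4% as tested, so the split between higher and lower depends on the scaling. On the first principal component, which held 51.4% of the variance, the replicate 1 samples were at -25.09 to -9.45 and the other 6 at -4.82 to 15.45, and within each replicate number the E2 sample had the lowest value.

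The other cultures were not alike either. With the replicate number as a factor of 3 levels, 4620 rows (41.6%) differed between replicates 1 and 2, with 20.5% higher and 21.2% lower in replicate 1. Between replicates 1 and 3 it was 3902 rows (35.2%, with 18% higher and 17.2% lower), and between replicates 2 and 3 it was 2375 rows (21.4%, with 10.9% higher and 10.5% lower in replicate 2). The standard deviation of the log2 differences was 0.255 and 0.263 for the 2 contrasts with replicate 1 and 0.171 between replicates 2 and 3. In that fit, which removes the difference between replicates 2 and 3 from the error, the contrast of replicate 1 with their mean called 4627 rows (41.7%), 21.1% higher and 20.6% lower. Rows with an absolute difference of at least 1 that were called numbered 92 for replicate 1 against 2, 117 for replicate 1 against 3 and 16 for replicate 2 against 3. Replicate 1 was thus compared with a pair of cultures that differed from each other by less, but that differed.

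The 15 genes with the largest rise in replicate 1 were led by *1600029D21Rik* (*Plet1*, chr9:50494525-50505482 in mm10), a surface protein of placental and epithelial progenitor cells. Its FPKM was 83.8 in solvent, 189 in E2 and 104 in 4OHT of replicate 1, and ran from 14.6 to 57.3 with a median of 24.1 in the other 6 samples, a difference of 2.09 ± 0.15 (SE, adjusted p = 0.000105). The groups did not overlap, which the rule for naming these genes required. *Sprr2g*, a small proline-rich protein of squamous and luminal epithelia, was at 22.4, 17.9 and 19.4 FPKM against 4.38 to 6.57 (median 5.04), a difference of 1.76 ± 0.11 (adjusted p = 5.57e-05). *Kit*, the stem cell factor receptor (chr5:75574916-75656722), was at 6.36, 13.4 and 5.18 FPKM against 0.841 to 4.81 (median 1.29), and its difference was 1.73 ± 0.19 (adjusted p = 0.000598).

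*Clu* encodes clusterin, an extracellular chaperone and complement inhibitor (chr14:65968483-65981547), and was the most abundant of the 15, at 306, 343 and 309 FPKM against 103 to 144 (median 116), with a difference of 1.4 ± 0.06 (adjusted p = 1.96e-05). *Agt*, angiotensinogen, rose by 1.66 ± 0.08 and *Guca2b*, the gut peptide uroguanylin, by 1.56 ± 0.11. The aspartic protease *Napsa* rose by 1.47, the sphingomyelinase-like *Smpdl3a* by 1.37 and the sorting receptor *Sorl1* by 1.57. *Dhrs3*, which reduces retinaldehyde back to retinol, was at 59.4, 64.9 and 55.9 FPKM against 13.5 to 31.2 (median 19.9). *Tmem20*, *Tmem178*, *Nsg2*, *Abp1* (diamine oxidase) and *Plce1* (phospholipase C epsilon) completed the list, with differences between 1.39 and 1.73.

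**Figure D1:**
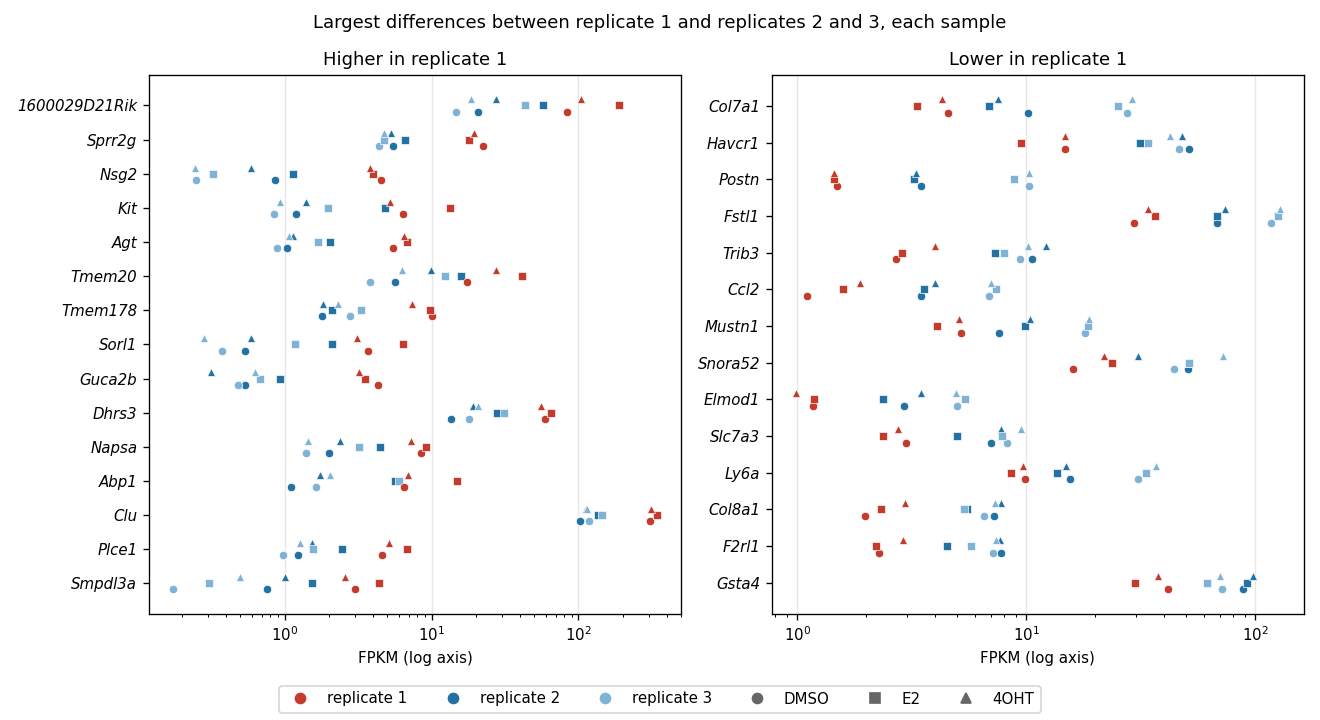
FPKM (log axis) of the 15 genes with the largest rise (left) and of 14 of the 15 with the largest fall (right) in replicate 1, with color for the replicate number and shape for the treatment, 1 point per sample. By the rule that chose the genes, the 3 red points of each gene lie to 1 side of the 6 blue points, and for *Col7a1* and *Postn* the darker points of replicate 2 lie between replicate 1 and replicate 3.

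The 15 genes with the largest fall were led by *Col7a1*, the collagen of anchoring fibrils (chr9:108953586-108984875). It was at 4.55, 3.35 and 4.27 FPKM in replicate 1 and ran from 6.9 to 29.0 (median 17.7) in the others, a difference of -1.67 ± 0.49 (adjusted p = 0.0399). It also differed between replicates 2 and 3, by -1.63 (adjusted p = 2.95e-05). The same held for *Postn* (periostin, -1.48, with -1.32 between replicates 2 and 3), *Ly6a* (the surface antigen Sca-1, -1.17 and -1.14), *Mustn1* (-1.29 and -0.93), the chemokine *Ccl2* (-1.30 and -0.79), *Elmod1* (-1.21 and -0.65) and *Fstl1* (a secreted follistatin-like protein, -1.46 and -0.81), for which replicate 2 lay between replicates 1 and 3 in mean level. With single samples left out in turn, *Col7a1* and *Ly6a* were called in 3 of 9 cases, *Postn* in 5 and *Mustn1* in 6. Neither matrix list moved in 1 direction. Of 12 collagens tested 3 were higher, among them *Col6a1* (0.66) and *Col6a2* (0.64), and 5 lower. Leaving out any 1 of the replicate 1 samples left 1 lower, and leaving out the solvent or the 4OHT one left 1 higher. Of 20 other extracellular matrix proteins 5 were higher, among them *Tgfbi* (1.39), and 4 lower, or 2 lower without any 1 of those samples, against 13.6% and 11.9% of all rows.

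Among the other genes of this group, *Havcr1*, *F2rl1* and *Col8a1* had replicates 2 and 3 at similar levels. *Havcr1*, a phosphatidylserine receptor known as kidney injury molecule 1 (chr11:46735080-46779578), was at 14.7, 9.51 and 14.8 FPKM against 31.5 to 51.2 (median 44.5), a difference of -1.63 ± 0.06 (adjusted p = 1.29e-05), and differed by 0.06 between replicates 2 and 3 (adjusted p = 0.471). *F2rl1*, the protease-activated receptor 2, fell by 1.14 and *Col8a1* fell by 1.15, with -0.05 and 0.08 between replicates 2 and 3. *Slc7a3*, a cationic amino acid transporter, fell by 1.19, and *Gsta4*, a glutathione transferase for lipid aldehydes, by 1.12, with -0.34 and 0.45 between replicates 2 and 3. *Snora52*, a small nucleolar RNA whose short length makes FPKM uncertain, fell by 1.22, and *Trib3* is described with its pathway.

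Genes of amino acid supply under the control of ATF4 were lower in replicate 1 in all 3 treatments. Of 24 genes listed, 23 were tested, and 16 were lower (11.9% of all rows) and 1 higher (13.6%). The median difference was -0.60 against -0.001 for all rows tested. Within solvent, E2 and 4OHT alone the median was -0.74, -0.53 and -0.53. *Trib3*, a pseudokinase that ATF4 induces and that feeds back on it, was at 2.7, 2.88 and 4.01 FPKM in replicate 1 and ran from 7.29 to 12.2 (median 9.79) in the others, a difference of -1.33 ± 0.09 (adjusted p = 6.06e-05). *Aldh1l2*, a mitochondrial folate enzyme, was at 3.55, 3.21 and 4.3 FPKM against 6.75 to 10.5 (median 9.38), and fell by 1.1 ± 0.06. *Chac1*, which degrades glutathione, was at 4.43, 4.72 and 4.94 FPKM against 9.17 to 10.9 (median 10.1), and fell by 0.97 ± 0.05. None of these 3 genes, picked as the largest differences of the list, overlapped between the groups, where 10.2% of all rows lay below all 6 others.

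*Pck2*, the mitochondrial phosphoenolpyruvate carboxykinase, fell by 0.93 ± 0.05, and *Cth*, the last enzyme of cysteine synthesis, by 0.90 ± 0.09. The list further held lower serine and one-carbon enzymes (*Psat1*, *Psph*, *Shmt2*, *Mthfd2*) and amino acid transporters (*Slc7a5*, *Slc7a1*, *Slc3a2*, *Slc7a11*), with differences between -0.85 and -0.24. *Atf4* itself was at 152 to 168 FPKM in replicate 1 and 197 to 239 in the others (-0.41, adjusted p = 0.00098), and *Atf5* differed by -0.60. *Stc2*, a secreted glycoprotein that ATF4 also induces, went the other way, at 121 to 124 FPKM against 59.0 to 108 (0.62, adjusted p = 0.0204), and was not called without the solvent or the 4OHT sample of replicate 1. *Phgdh*, the first enzyme of serine synthesis, was not called (0.11, adjusted p = 0.177), nor were *Ddit4*, *Sesn2*, *Cebpb*, *Nupr1* and *Vldlr*. Leaving out any single sample left 14 to 16 genes called lower. Between replicates 2 and 3, 2 of the 23 were called higher (10.9% of all rows) and 1 lower (10.5%).

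The promoter sequences of these genes were examined for the core of the composite element that ATF4 binds with a C/EBP partner, and the windows below are shown because they hold it in genes that were lower in replicate 1. Each window runs from 250 bases before to 30 bases after the RefSeq transcript start (GRCm38.p6, 5′ to 3′ on the strand of the gene, the reference strain and not FVB). The motif searched was TGATGNAA on both strands, in capitals here and read as its reverse complement where it lies on the opposite strand. It occurred in 7 of the 20 tested list members that have a window (*Asns*, *Chac1*, *Trib3*, *Slc7a11*, *Pck2*, *Vldlr* and *Nupr1*), of which 5 were lower and 2 were not called, and in 3.81% of all 32851 windows, or 4.32% of the 27025 gene symbols with a window. A match of letters is a description and not a measured binding site. *Trib3* is shown at chr2:152344031-152344310 (reverse strand), *Chac1* at chr2:119350992-119351271 (forward strand), *Asns*, asparagine synthetase, at chr6:7693180-7693459 (reverse strand) and *Pck2* at chr14:55540016-55540295 (forward strand).
Trib3: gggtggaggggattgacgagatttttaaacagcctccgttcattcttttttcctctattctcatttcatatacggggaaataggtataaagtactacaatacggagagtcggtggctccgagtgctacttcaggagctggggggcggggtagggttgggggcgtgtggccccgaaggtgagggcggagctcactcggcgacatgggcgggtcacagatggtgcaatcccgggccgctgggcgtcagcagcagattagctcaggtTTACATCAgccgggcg
Chac1: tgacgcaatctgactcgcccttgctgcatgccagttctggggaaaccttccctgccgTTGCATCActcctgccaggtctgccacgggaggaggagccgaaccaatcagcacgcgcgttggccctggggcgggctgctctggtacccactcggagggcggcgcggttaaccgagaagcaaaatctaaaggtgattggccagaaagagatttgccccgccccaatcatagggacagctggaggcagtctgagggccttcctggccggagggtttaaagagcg
Asns: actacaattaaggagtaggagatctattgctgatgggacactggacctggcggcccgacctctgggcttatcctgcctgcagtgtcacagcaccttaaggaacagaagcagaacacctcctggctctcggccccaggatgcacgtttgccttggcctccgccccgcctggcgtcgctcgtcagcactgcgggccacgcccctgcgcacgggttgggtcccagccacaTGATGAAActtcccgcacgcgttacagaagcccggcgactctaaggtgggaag
Pck2: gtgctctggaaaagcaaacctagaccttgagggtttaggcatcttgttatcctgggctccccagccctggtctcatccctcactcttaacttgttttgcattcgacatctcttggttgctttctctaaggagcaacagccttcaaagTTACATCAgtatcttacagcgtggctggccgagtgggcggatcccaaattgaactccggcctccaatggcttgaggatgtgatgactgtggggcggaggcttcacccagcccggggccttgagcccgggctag

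The match began 193 bases before the start in *Chac1*, 103 in *Pck2* and 23 in *Asns*, and lay after the start in *Trib3*. *Asns*, the enzyme that makes asparagine, was at 51, 50.6 and 57.1 FPKM in replicate 1 and between 78.8 and 98.6 in the others, a difference of -0.73 ± 0.04 (adjusted p = 4.32e-05).

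Genes of cholesterol synthesis and uptake were higher in replicate 1. Of 24 tested, 20 were higher (13.6% of all rows) and 1 lower (11.9%), with a median of 0.37. Within solvent, E2 and 4OHT the median was 0.38, 0.44 and 0.32. *Hmgcs1*, which makes HMG-CoA, was at 81.9, 95.5 and 78.3 FPKM against 46.0 to 63.6 (median 51.6), a difference of 0.69 ± 0.06 (adjusted p = 0.000244). *Lss*, which closes the sterol rings, was at 38.6, 47.7 and 38.1 FPKM against 22.6 to 31.2 (0.64 ± 0.04, adjusted p = 6.1e-05). *Insig1*, which holds SREBP back in the endoplasmic reticulum, was at 33.6, 43.9 and 35.7 FPKM against 21.1 to 28.2 (median 22.9), a difference of 0.65 ± 0.05 (adjusted p = 0.000104). For none of these, picked in the same way, did the groups overlap, where 10.8% of all rows lay above all 6 others.

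The isomerase *Idi1* (0.53), the mevalonate decarboxylase *Mvd* (0.52), the sterol carrier *Stard4* (0.62) and *Srebf2*, the gene of SREBP2 itself (0.37), were higher as well. *Mvk*, *Ebp* and *Sc4mol* were not called. With any single sample left out, 17 to 21 members were called higher. The adjoining list of fatty acid synthesis (median 0.10) had 5 of 16 higher (13.6% of all rows) and none lower (11.9%). *Scd2* (0.43) and *Acly* (0.28) were among the higher genes of this list. The list had 2 higher without the solvent or the E2 sample of replicate 1.

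**Figure D2:**
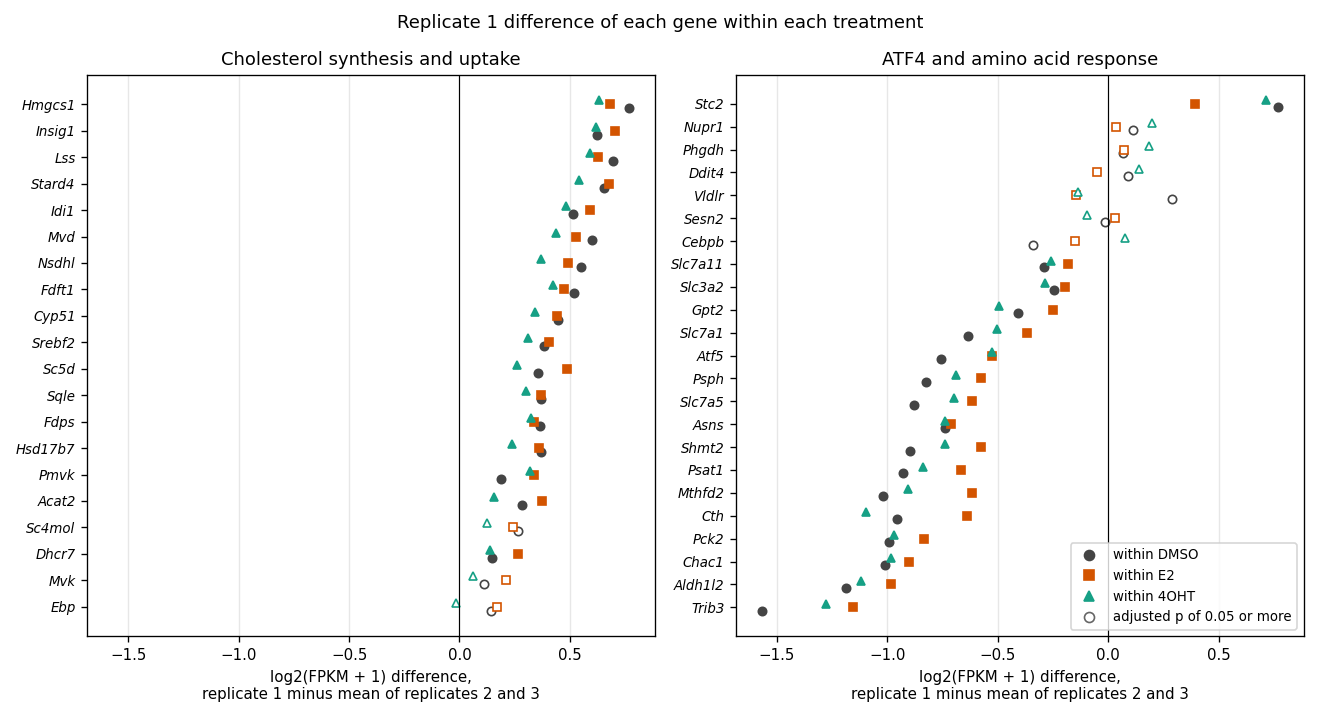
Difference of the replicate 1 sample from the mean of replicates 2 and 3 on the log2(FPKM + 1) scale for 20 of the 24 tested genes of cholesterol synthesis and uptake (left) and of the ATF4 and amino acid response (right, 23 genes), within solvent (DMSO), E2 and 4OHT, with open symbols for genes with an adjusted p of 0.05 or more. The 17 sterol genes shown that were called higher lie right of 0 and the 16 lower ATF4 genes left of 0 in each of the 3 treatments.

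Estrogen receptor alpha and genes that respond to estrogen were higher in replicate 1, also without added estrogen. Of 22 genes listed, 14 were tested, 13 were higher (13.6% of all rows) and none was lower (11.9%), with a median of 0.67. Much of this list was picked by the study from its E2 effect in these same samples, so it is no independent evidence of a direction, and leaving out the replicate 1 sample of solvent, E2 or 4OHT left 8, 9 and 11 genes called higher. *Esr1* (chr10:4611593-5005614) was at 12.4, 16.3 and 11.2 FPKM in solvent, E2 and 4OHT of replicate 1, at 5.98, 9.32 and 5.25 in replicate 2, and at 6, 8.31 and 5.4 in replicate 3. Replicate 1 lay above all 6 others, by 0.90 ± 0.05 (adjusted p = 2.58e-05), and replicates 2 and 3 differed by 0.04 (adjusted p = 0.63). *Esr2*, for estrogen receptor beta, did not exceed 0.13 FPKM in any sample and was not tested, and the table has no row named *Gper1*, the membrane estrogen receptor.

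The progesterone receptor gene *Pgr* (chr9:8899833-8968611), a classical estrogen receptor target, read 9.58, 38.1 and 9.67 FPKM in solvent, E2 and 4OHT of replicate 1. Replicate 2 read 1.36, 21.1 and 3.67 FPKM, and replicate 3 read 1.16, 15.9 and 2.39 FPKM. Replicate 1 was highest in each treatment, by 2.23, 1.02 and 1.42, and the difference over all treatments was 1.56 ± 0.21 (adjusted p = 0.00138). *Greb1*, a cofactor of the receptor (chr12:16670615-16800886), had the same order. Its 3 treatments read 14.3, 34.3 and 13.2 FPKM in replicate 1, then 2.58, 20.4 and 3.76 in replicate 2 and 2.3, 14.3 and 3.23 in replicate 3 (1.59 ± 0.20, adjusted p = 0.000933).

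*Dcn*, the matrix proteoglycan decorin, was higher in replicate 1 in each treatment, with 21 FPKM in its E2 sample where replicates 2 and 3 had 11.9 and 6.05, and with 6.47 FPKM in its 4OHT sample where they had 2.07 and 0.581. In solvent it read 5.87 FPKM beside 0.652 and 0.416 (1.71 ± 0.27, adjusted p = 0.00286). *Dcn* is also a fibroblast marker. The summed level of the 10 fibroblast markers was 9.32 to 24.7 FPKM in replicate 1 and 7.14 to 19.6 in the others, 7 of them were under 1 FPKM in all samples, and the other tested ones, *Col1a1* and *Postn*, were lower in replicate 1, so the marker list did not move in 1 direction. The part of other cell kinds in the *Dcn* result was not tested. The dehydrogenase *Dhrs9* (0.96), the cytokine *Csf2* (0.50), the receptor corepressor *Nrip1* (0.43) and the peptidylarginine deiminase *Padi1* (0.74) were also higher in replicate 1. The paper names *Nrip1* as a gene that E2 left unchanged in MOE cells by qPCR. Here *Nrip1* read 13.5 FPKM in solvent and 16.6 in E2 of replicate 1, 10.4 and 12.1 in replicate 2, and 9.2 and 9.49 in replicate 3.

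**Figure D3:**
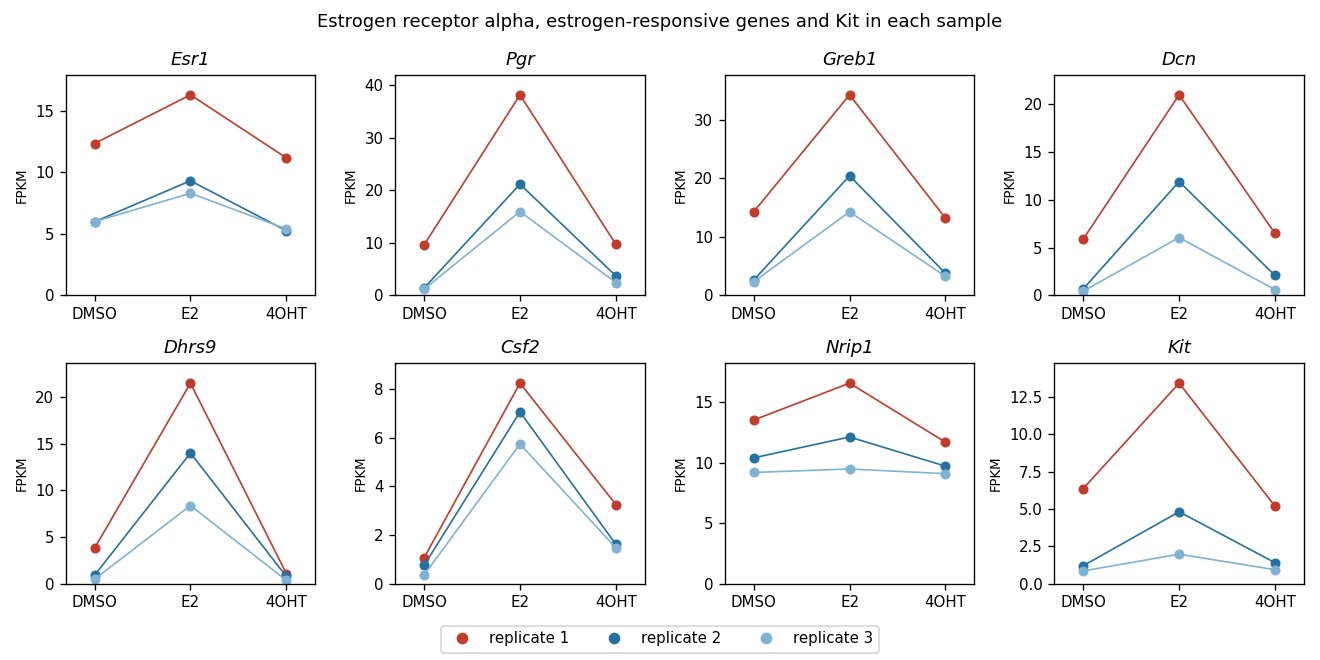
FPKM of *Esr1*, 6 further genes of the estrogen list and *Kit* by treatment, 1 line per replicate number. The replicate 1 line lies above the lines of replicates 2 and 3 at every treatment, with *Pgr* in solvent at 9.58 FPKM against 1.36 and 1.16.

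The level in solvent was higher in replicate 1, and the ratio of E2 to solvent was smaller there for several of these genes. For *Pgr* the ratio was 3.98 in replicate 1, 15.6 in replicate 2 and 13.8 in replicate 3, and for *Greb1* it was 2.4, 7.91 and 6.2. For *Esr1* it was 1.32, 1.56 and 1.39, and for *Padi1* 5.23, 5.12 and 4.07, so the order was not shared by all. The median log2 change from solvent to E2 over the 14 estrogen list genes was 1.64, 1.95 and 1.71 in replicates 1, 2 and 3. The interaction of replicate 1 with E2 tested whether the difference of replicate 1 depended on the treatment. The fit did not pair same-numbered samples, although they deviated together, so the difference between replicates 2 and 3 stayed in its error. No row (0%) had an adjusted p under 0.05 with limma and Benjamini-Hochberg adjustment, for E2 or for 4OHT, 160 and 91 rows had an unadjusted p under 0.05, and the smallest adjusted p was 0.257 and 1. The smallest belonged to *AI118078*, which E2 raised from 11 to 24.8 FPKM in replicate 1, from 1.18 to 20.3 FPKM in replicate 2 and from 1.37 to 17 FPKM in replicate 3 (interaction -2 ± 0.18). *Pgr* had an interaction of -1.21 ± 0.32 (adjusted p = 1) and *Tspan13* one of -1.18 ± 0.17 (adjusted p = 1). For 4OHT the smallest p belonged to the small nucleolar RNA *Snord47*, whose short length makes FPKM uncertain. *Snord47* was at 42.5 FPKM in 4OHT of replicate 1 and between 389 and 927 in the other 8 samples.

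As a description with no test, and chosen with earlier results known, the 66 rows that E2 raised by at least 1 in both replicate 2 and replicate 3 were followed in 4OHT. The 4OHT samples were not used to choose them, but same-numbered samples deviated together (r = 0.727 between solvent and 4OHT of replicate 2, and 0.669 of replicate 3), so the position in 4OHT is not independent of the choice. The replicate 1 sample lay above both others in 59 of the 66 (89.4%), against 34.4% of all rows tested, with a median difference of 0.75 against -0.01. The 17 rows that E2 lowered by at least 0.5 in both had a median of -0.03, and replicate 1 lay below both others in 6 of them (35.3%, against 35.7% of all rows).

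Listed factors of Müllerian duct and oviduct identity, the duct being that from which the oviduct forms, were mostly higher in replicate 1. Of 23 listed, 10 were tested, and 7 of these were higher (13.6% of all rows) and none lower (11.9%), with a median of 0.34. Without the solvent or the 4OHT sample of replicate 1, 5 were called higher. *Wt1*, a zinc finger factor of the urogenital ridge, was at 45.3, 40.6 and 44.2 FPKM against 26.3 to 28.9 (median 28.1), a difference of 0.62 ± 0.05 (adjusted p = 0.000136). *Meis1* (0.51), *Emx2* (0.43), *Pax2* (0.36) and *Pax8* (0.35) rose with it, and *Hoxa5*, *Meis2* and *Nr2f1* were not called. The secreted oviduct glycoprotein gene *Ovgp1*, the product that names the differentiated secretory cell, was at 1.47 to 1.99 FPKM against 1.44 to 2.61 and was not called (-0.16, adjusted p = 0.194). The cytokeratin *Krt7* rose by 0.44, while *Krt8*, *Krt18*, *Krt19* and *Krt20* fell by 0.35, 0.32, 0.47 and 0.68. In the list of epithelial junctions and keratins (median -0.22) 10 of 18 were lower (11.9% of all rows) and 3 higher (13.6%). *Cldn4*, a tight junction claudin, was at 6.36, 4.99 and 6.79 FPKM against 9.59 to 12 (-0.75), and the desmosome gene *Dsp* was higher (0.40). The count of lower genes in the list was 6 without the solvent sample of replicate 1. The mesothelial markers *Msln* and *Krt19* were lower in replicate 1, and *Upk3b* was not called (-0.19, adjusted p = 0.068). The summed level of the mesothelial list was 232 to 269 FPKM against 337 to 406. *Krt19*, counted in this sum, reached 243 FPKM, and the part of the list in the keratin result was not tested.

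Genes of the actin cytoskeleton were lower in replicate 1, with 14 of 20 lower (11.9% of all rows) and none higher (13.6%). Their median was -0.26. Leaving out the replicate 1 sample of solvent or of 4OHT left 8 called lower. *Cnn2*, a calponin, was at 252, 313 and 292 FPKM against 415 to 474 (median 445), a difference of -0.64 ± 0.05 (adjusted p = 0.000113), with no overlap. *Srf*, the transcription factor of this gene class, was at 20.7 to 23.2 FPKM against 28.5 to 32.1 (-0.42), *Csrp1* differed by -0.45 and *Tagln* by -0.59. *Acta2* was not called (-0.25, adjusted p = 0.172). The summed level of the smooth muscle markers, nearly all of it *Acta2*, was 947 to 1300 FPKM against 1060 to 1760, with *Myh11* and *Des* under 1 FPKM in all samples, and its part in the result was not tested.

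Targets of the mechanical sensor YAP gave a mixed picture, with 7 of 19 lower and 3 higher, or 3 lower and 1 higher without the solvent sample of replicate 1. The defining targets were among the lower ones. *Ctgf*, a matricellular growth factor binding protein, was at 434, 733 and 571 FPKM against 939 to 1580 (median 1200), a difference of -1.09 ± 0.09 (adjusted p = 0.000166), *Cyr61* differed by -0.67 and *Ankrd1* by -0.42. The ectonucleotidase *Nt5e* was higher (0.93). The matrix protease inhibitor *Timp3* differed by -0.89. Among immediate early genes 8 of 22 were lower and 3 higher (3 and 1 without the solvent sample of replicate 1), including *Myc* (-0.53) and the ERK phosphatase *Dusp5* (-0.50) among the lower. In the EGF and FGF list 6 of 20 were lower, among them the EGF receptor ligands *Hbegf* (-0.70) and *Ereg* (-0.59) and the fibroblast growth factor *Fgf7* (-0.88), and 2 were higher, *Kit* and *Fgfr2* (0.46). In the list of chemokines and cytokines 3 of 15 were lower, *Ccl2*, *Lif* (-0.76) and *Il11* (-0.84), and 2 were higher, *Csf2* and the interleukin 1 receptor antagonist *Il1rn* (0.80). Beside the counts of these lists, 13.6% of all rows were higher and 11.9% lower.

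Inhibitors of differentiation were higher, with *Id4* at 34.7, 42.5 and 34.4 FPKM against 12.9 to 22.0 (1.13 ± 0.07, adjusted p = 3.33e-05) and *Id1*, *Id2* and *Id3* higher by 0.37, 0.44 and 0.47. The TGF-beta and BMP list that holds them had 6 of 23 genes higher, *Tgfb1* (0.31) among them, and 2 lower, with the activin subunit *Inhba* at -0.72. In the Wnt list 6 of 21 were higher, among them the Wnt deacylase *Notum* (1 ± 0.06) and the stem cell receptor *Lgr5* (0.89), and 3 were lower, with *Wnt7a* at -1. Leaving out any 1 of the replicate 1 samples left 3 of the Wnt genes called higher. Over all rows tested 13.6% were higher and 11.9% lower. Against replicate 2 alone 14 Wnt genes were higher and 3 lower, where 20.5% and 21.2% of all rows were. Against replicate 3 alone it was 7 and 6, where it was 18% and 17.2% of all rows. For the TGF-beta list it was 11 and 2 against replicate 2, and 8 and 7 against replicate 3. Between replicates 2 and 3, 10 Wnt and 12 TGF-beta genes were lower in replicate 2, and 0 and 2 higher. Of all rows 10.5% were lower and 10.9% higher in that contrast.

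Lysosome and autophagy genes were higher by small amounts (median 0.16), with 15 of 29 higher (13.6% of all rows) and 1 lower (11.9%). The count of higher genes fell to 6, 9 and 6 without the replicate 1 sample of solvent, E2 and 4OHT. *Ctsl*, a cysteine protease, was at 559, 421 and 489 FPKM against 292 to 307, with a difference of 0.69 ± 0.07 (adjusted p = 0.000459). *Ctsb* (0.47), *Npc2* (0.34) and *Psap* (0.33) followed, and *Ctsz* was lower (-0.36). The palindrome TCACGTGA, the core of the element bound by TFEB, which reads the same on both strands, occurred in the windows of 4 of 22 tested members with one (*Ctsa*, *Ctsd*, *Gla* and *Mcoln1*), of which 2 were higher and 2 were not called, and in 0.931% of all windows, or 1.07% of gene symbols. The windows of the 2 called members are shown in the same form, at chr2:164833523-164833802 for *Ctsa* (forward strand) and chr7:142387798-142388077 for *Ctsd* (reverse strand), the first being 1 of 2 annotated starts.
Ctsa: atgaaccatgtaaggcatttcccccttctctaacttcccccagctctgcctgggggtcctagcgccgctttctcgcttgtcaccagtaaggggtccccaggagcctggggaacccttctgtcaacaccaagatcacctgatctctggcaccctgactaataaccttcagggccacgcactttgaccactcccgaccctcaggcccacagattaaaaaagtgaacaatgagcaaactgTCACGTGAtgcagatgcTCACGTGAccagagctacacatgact
Ctsd: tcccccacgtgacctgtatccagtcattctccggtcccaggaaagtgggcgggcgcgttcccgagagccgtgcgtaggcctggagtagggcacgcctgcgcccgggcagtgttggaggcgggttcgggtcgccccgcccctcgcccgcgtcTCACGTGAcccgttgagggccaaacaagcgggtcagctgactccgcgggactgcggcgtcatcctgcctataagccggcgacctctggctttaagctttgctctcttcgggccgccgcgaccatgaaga

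*Ctsa*, a carboxypeptidase, and *Ctsd*, the aspartic protease cathepsin D, were each higher in replicate 1 by 0.27 (adjusted p = 0.00913 and 0.00445). In the list of complement and acute phase genes 4 of 7 tested were higher (13.6% of all rows) and none was lower (11.9%). *C3*, the central complement protein, was at 166, 249 and 170 FPKM against 52.3 to 130 (median 66.7), a difference of 1.36 ± 0.11 (adjusted p = 0.000136), and its inactivator *Cfi* was higher by 1.25. The other members called were *Clu* and the acute phase protein *Hp* (0.56). The leukocyte markers summed to 31.1 to 44.5 FPKM in replicate 1 and 24.6 to 32.2 in the others, with 8 of 11 under 1 FPKM in all samples and *Cd14* the 1 member called (0.62), and their part in this result was not tested. *Sesn1*, a stress protein that restrains mTORC1, was at 14.7, 12.7 and 12.3 FPKM against 4.31 to 5.37 (1.30 ± 0.06, adjusted p = 2.58e-05), and *Hist1h2bc*, a histone H2B gene, was higher by 1.08.

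**Figure D4:**
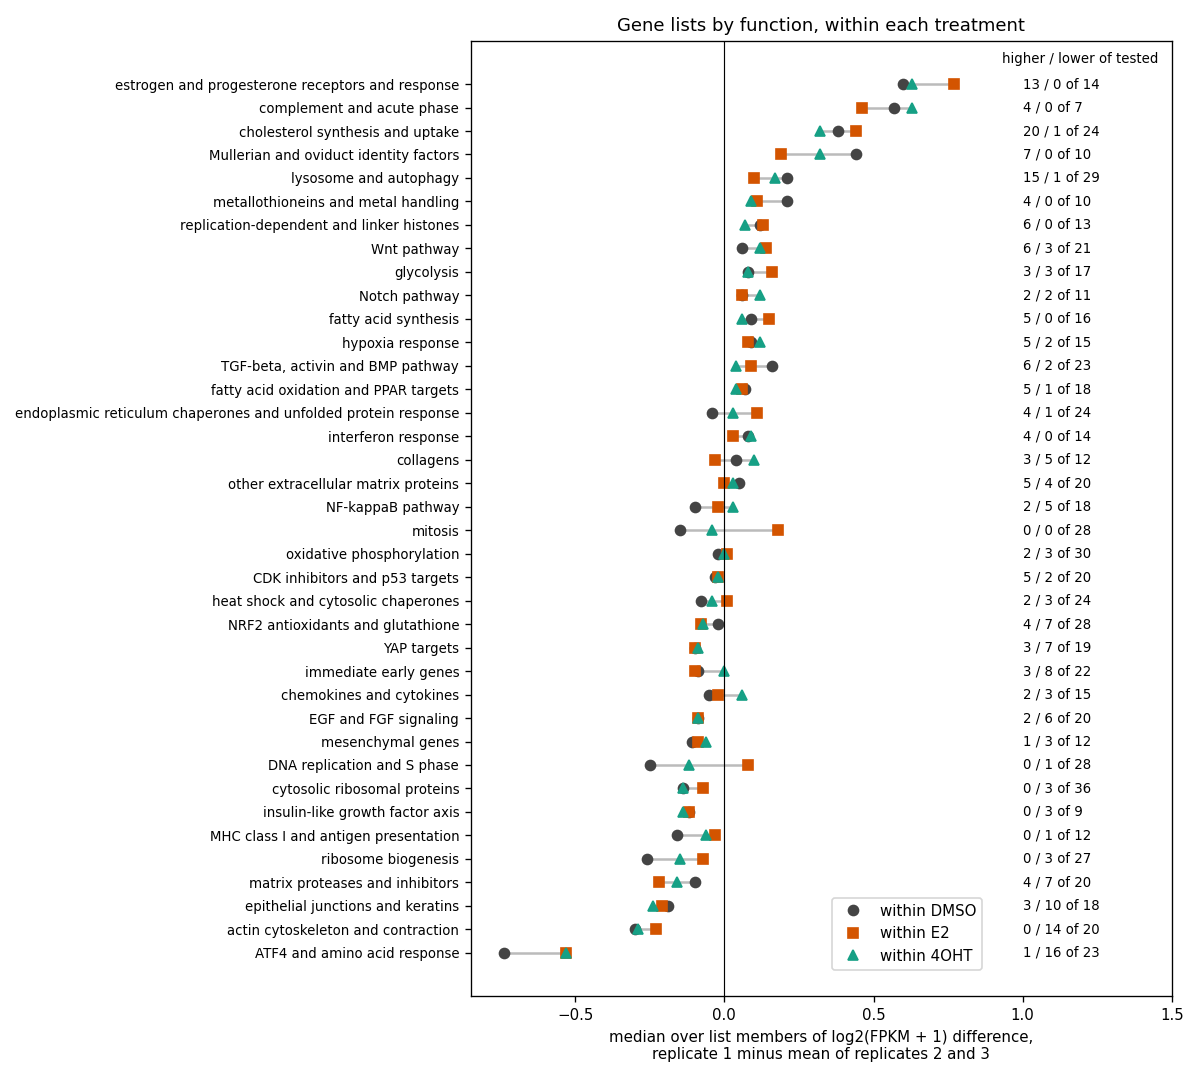
Median difference over the tested genes of each of 38 lists by function, within solvent (DMSO), E2 and 4OHT, on the log2(FPKM + 1) scale, with the numbers of genes called higher and lower over all treatments at the right. The ATF4 list lies lowest, at -0.74 to -0.53, and the estrogen list highest within E2, at 0.77. The 2 cell cycle lists are among those that change sign between solvent and E2, as do endoplasmic reticulum chaperones (-0.04 and 0.11) and collagens (0.04 and -0.03).

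Cell cycle genes were rarely called when replicates 2 and 3 were joined, and more often between single replicate numbers. In the list of DNA replication 0 of 28 genes were higher and 1 was lower, and in the list of mitosis 0 of 28 were called in either direction with limma, where 25.5% of all rows were called. Without adjustment 2 genes of the first list and 0 of the second were under 0.05. With replicates 2 and 3 fitted apart 4 of the first were lower (20.6% of all rows) and 2 of the second higher (21.1%). Of the 28 replication genes 17 were lower than in replicate 2 (21.2% of all rows) and 1 was lower than in replicate 3, and 15 were higher in replicate 2 than in replicate 3 (10.9% of all rows). Of the 28 mitosis genes 1 was lower than in replicate 2 and 7 were higher than in replicate 3 (18% of all rows), and 10 were higher in replicate 2 than in replicate 3. The 3 treatments were not alike in this. Within solvent the median difference of the replication genes was -0.25 and within E2 it was 0.08. For the mitosis genes it was -0.15 in solvent and 0.18 in E2, and the replicate 1 sample lay above both others in 27 of the 28 genes within E2, where 41% of all rows did so and 32.5% lay below. Within solvent it lay above both in 0 of them and below both in 14, against 37.3% and 39.5% of all rows. No interaction was called, and the lists were not tested.

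By sample, relative to each gene's mean over the 9 samples, the median mitosis gene was at -0.04, -0.01 and 0.03 in solvent, E2 and 4OHT of replicate 1, at 0.23, -0.15 and 0.19 in replicate 2, and at -0.03, -0.24 and -0.03 in replicate 3. The median change from solvent to E2 was 0.03 in replicate 1, -0.35 in replicate 2 and -0.18 in replicate 3 on the log2(FPKM + 1) scale. In replicates 2 and 3, 0 of the 28 mitosis genes were higher in E2 than in solvent, and in replicate 1 18 were. *Mki67*, a proliferation antigen, was at 15.9 and 16.3 FPKM in solvent and E2 of replicate 1, 17.3 and 15.9 in replicate 2, and 14.7 and 11.2 in replicate 3. *Top2a*, the mitotic topoisomerase, was at 45.2 and 46.7, 52.9 and 42.6, and 43.6 and 35.9 FPKM.

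**Figure D5:**
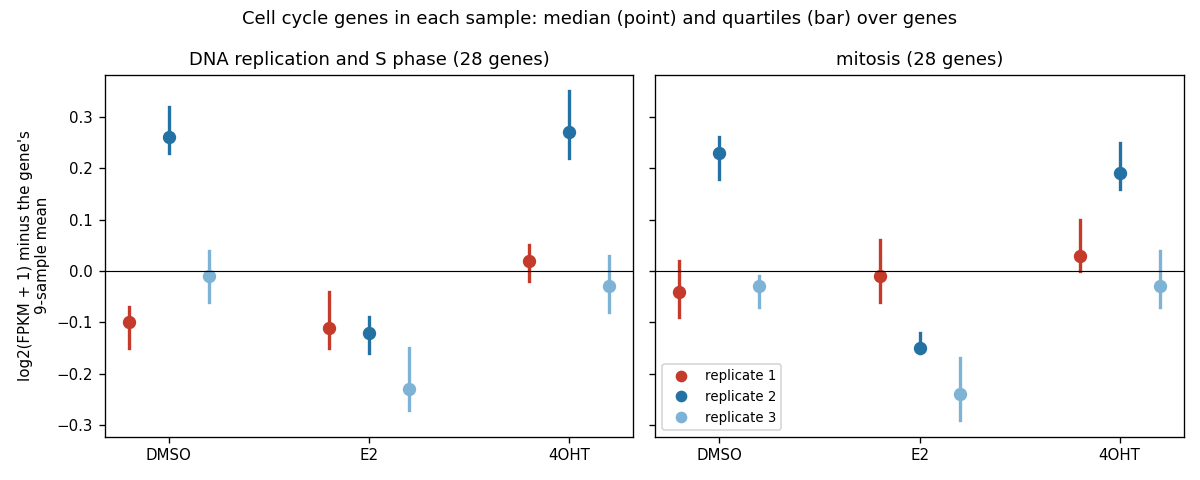
Median (point) and quartiles (bar) over the genes of DNA replication (left) and mitosis (right) of log2(FPKM + 1) minus the gene's mean over 9 samples, by treatment and replicate number. Replicate 2 in solvent and 4OHT stands highest (0.23 and 0.19 for mitosis), and replicate 1 lies between -0.04 and 0.03 for mitosis and between -0.11 and 0.02 for DNA replication.

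Genes of the ribosome were called mainly in the contrasts with replicate 2. Of 36 cytosolic ribosomal proteins 3 were lower in replicate 1 (11.9% of all rows). With the difference between replicates 2 and 3 removed from the error, 21 were lower (20.6% of all rows). Against replicate 2 alone 34 were lower (21.2% of all rows) and against replicate 3 alone 2 were (17.2%). In replicate 2, 25 were higher than in replicate 3 (10.9%). Of 27 genes of ribosome biogenesis, 23 were lower than in replicate 2, 2 were lower than in replicate 3, and 23 were higher in replicate 2 than in replicate 3. By contrast, of 24 sterol genes 22 and 20 were higher against replicates 2 and 3, and of 14 estrogen genes 13 and 13 were. Of 23 ATF4 genes 16 and 16 were lower. Among all rows 20.5% and 18% were higher and 21.2% and 17.2% lower in these contrasts.

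The remaining lists are given beside 13.6% higher and 11.9% lower of all rows. For CDK inhibitors and p53 targets, the list of *Sesn1*, 5 of 20 genes were higher and 2 lower. For replication-dependent and linker histones, measured in RNA selected by its poly(A) tail, it was 6 and 0 of 13. For matrix proteases and inhibitors, with *Timp3*, it was 4 and 7 of 20. Metallothioneins and metal handling had 4 and 0 of 10, and mesenchymal genes 1 and 3 of 12. The NF-kappaB pathway had 2 and 5 of 18 and the Notch pathway 2 and 2 of 11. The insulin-like growth factor axis had 0 and 3 of 9. For oxidative phosphorylation 2 of 30 genes were higher and 3 lower, for glycolysis 3 and 3 of 17 (*Pdk1*, which holds pyruvate back from the mitochondrion, was higher by 0.64), for heat shock and cytosolic chaperones 2 and 3 of 24, and for endoplasmic reticulum chaperones 4 and 1 of 24. For fatty acid oxidation 5 of 18 were higher and 1 lower, with *Cpt1a*, the carnitine gate to the mitochondrion, higher by 0.56. The antioxidant and glutathione list had 7 of 28 lower, among them the NRF2 target *Nqo1* (-0.72) and *Gsta3* (-0.86), and 4 higher. Of the hypoxia genes 5 of 15 were higher and 2 lower, with *Ndrg1* (0.54) higher and *Vegfa* (-0.71) lower. Interferon response genes had 4 of 14 higher and none lower, with *Gbp2* at 0.55, and antigen presentation had 1 of 12 lower and none higher. For most of these lists the counts were smaller with a replicate 1 sample left out, for instance 2 higher hypoxia genes without the solvent or the 4OHT sample.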

How the data were processed

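RNA-seq was done on 9 samples of MOE cells, 3 replicate numbers in each of 3 treatments, taken from the sample labels. The authors aligned reads with TopHat2 2.0.8b to mm10 and computed FPKM per gene with Cuffdiff 2.1.1, and the deposited files hold these FPKM values per sample. They used a gene annotation for mm10 from UCSC, joined with the transcripts assembled by Cufflinks. FPKM keep no depth, and the read totals that the study lists were not used here, so no counting error is given, and a value of exactly 0 can be a failed estimate. Of 23332 gene rows, 11339 reached 1 FPKM in at least 3 samples, 245 of these held an exact 0 and were left out, and 11094 were tested. Rows with joined names (293) and symbols with several rows (362 symbols) stayed separate.

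Values were tested as log2(FPKM + 1) with limma 3.58.1 (R 4.3.3) with a trended prior variance, as the effect of replicate 1 beside treatment, with Benjamini-Hochberg adjustment over all rows and a threshold of 0.05. A second fit took the replicate number as a factor of 3 levels, and another added the interaction of replicate 1 with treatment. Pairing was checked first: deviations from the treatment means correlated between same-numbered samples with r from 0.523 to 0.828 over 9 pairs, so the numbers pair the samples. The scripts were tested on simulated data. Coordinates came from GENCODE M21 (mm10), and promoter windows of 280 bases from RefSeq (GRCm38.p6).

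The comparison and its 38 lists by function (951 genes, 714 tested) and 8 marker lists were chosen with earlier results of these data known. Named genes were the 15 largest differences in each direction among rows called with replicate 1 outside all 6 others, up to 5 of the largest differences per list with regulators that moved against it, 9 genes that the study measured or names as receptors, and up to 5 per interaction. Further members of the sterol, ATF4, estrogen, Müllerian, keratin, TGF-beta, cell cycle and lysosome lists were named after their values were seen. Alternatives covered the pseudocount, filter, zeros, scaling, GC content and length, treatment and replicate terms, variance model, thresholds, and leaving out samples, replicates or treatments. Those for single pairs of replicate numbers, and lists within 1 treatment, were chosen after seeing the data. Some members of the lists are counted but not reported by name here.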

Additional observations from a re-analysis of the deposited data

Results flagged for a closer look

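*Kit* had 1 sample far from the other 5 of replicates 2 and 3. Its FPKM was 4.81 in E2 of replicate 2, and the 6 samples had a median of 1.29. The 6 samples span 3 treatments, and *Kit* was also highest in E2 in replicate 1 (13.4 FPKM), so the rate of about 1 in 20 groups that chance gives for like samples does not apply. In all, 37 genes were examined.

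For 2 lists the median over genes of the difference of the replicate 1 sample from replicate 2, from replicate 3 and from their mean had 1 sign in 1 treatment and the opposite sign in another. The median difference of the DNA replication genes was -0.25 within solvent and 0.08 within E2. For heat shock and cytosolic chaperones it was -0.08 within solvent, 0.01 within E2 and -0.04 within 4OHT, with the value in E2 close to 0. These differences between treatments were not tested.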

How the results depend on the processing

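The count of rows called for replicate 1 stayed within 1.5 times of 2834 with 0.1 added to FPKM in place of 1 (2822), with rows of low FPKM included (3020), with exact zeros kept (2676), upper-quartile scaling (2829), equal totals (2869), quantile normalization (2942), correction for GC content and length (3029) and no variance trend (2791). With the replicate block, which treats the number as 3 levels since same-numbered samples are paired, it was 4627 (2338 higher, 2289 lower). It was 1784 (905 and 879) with no treatment block, 1038 (575 and 463) without the DMSO samples, 1450 (790 and 660) without the E2 samples, 1315 (735 and 580) without the 4OHT samples, 1372 (765 and 607) at an adjusted p under 0.01, and 90 (64 and 26) with an absolute difference of at least 1. With 1 sample or 1 replicate number left out it ran from 1151 (without DMSO replicate 1) to 4160 (without replicate 2), with 644 to 2109 higher and 507 to 2051 lower. Without E2 or 4OHT replicate 1 it was 1653 and 1390. Apart from the smaller number of samples, the cause was not tested.

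In the same order (no treatment block, without the DMSO samples, without the 4OHT samples, adjusted p under 0.01, difference of at least 1), replicate 1 against 2 gave 2035, 2183, 2683, 2748 and 92 rows, replicate 1 against 3 gave 1865, 2134, 2258, 2289 and 117, and replicate 2 against 3 gave 320, 611, 392, 736 and 16. With single samples left out these ran from 3038 (without DMSO replicate 2) to 4844, from 2533 (without DMSO replicate 3) to 4469, and from 805 (without DMSO replicate 2) to 3032, each highest without E2 replicate 2. The interactions with E2 and 4OHT had 0 rows called, 35 and 27 with exact zeros kept, 1 and 2 with the replicate block, and 0 under every leave-out.

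Of 798 list medians under alternatives, 6 changed sign, all of medians near 0: DNA replication (-0.21 to 0.04 with a sample or replicate number left out), mesenchymal genes (-0.12 to 0.01), TGF-beta (-0.02 to 0.18), glycolysis (-0.03 to 0.22) and chemokines (-0.11 to 0, and 0 without the E2 samples). Of 182 named genes called, 109 were called without each of the 9 single samples, 88 under all 24 alternatives, and 0 changed sign. The replicate number stands for 1 culture set against 2, and FPKM without counts give no measure of depth, which limits all genes near 1 FPKM most.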
